A study of Mus musculus with 40 samples.

Results

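The genes described here are the classical axon guidance ligands and receptors: the semaphorins with their plexin and neuropilin receptors, the Slits with their Robo receptors, the netrins and Draxin with the receptors Dcc, Neo1 and Unc5a to Unc5d, and the ephrins with the Eph receptors. Membership follows from the gene symbol, and the symbols name 74 genes in the RefSeq annotation of mouse assembly GRCm38.p6. The symbol rule uses no measured value, but it was chosen with earlier results of these data known. Of these, 73 are among the 17974 genes listed at either stage, and 71 carry an adjusted p-value at either stage. The study, by its title, concerns duplication of Chd8, a gene for a chromatin remodeler that is linked to autism. It compared the forebrain of male wild-type mice (WT) with that of male Chd8 KI mice (KI, as the labels name the genotype), at the embryonic stages E14.5 and E18.5, with 5 WT and 5 KI polyadenylated RNA libraries at each stage. The strain, the site and form of the KI allele, and whether the animals of a group came from separate litters are not given in the sources used here, so the p-values measure the spread between these libraries. Chromatin immunoprecipitation, input and ATAC-seq libraries of the series were not analysed here.

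Guidance cues are secreted or membrane-bound proteins that attract or repel the growing tip of an axon, and the receptors on that tip turn the contact into changes of the cytoskeleton. In the developing forebrain they steer callosal, corticothalamic and thalamocortical axons, and several of them also guide migrating neurons and growing vessels. Netrin-1 signals through Dcc, Neo1 and the Unc5 receptors, Slits repel axons through Robos, most secreted semaphorins act through neuropilin and plexin complexes, and ephrins and Eph receptors signal in both directions at cell contacts. Draxin is a secreted repellent that binds both Netrin-1 and Dcc and is needed for the forebrain commissures.

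Each gene's values come from the authors' test of KI against WT: a mean normalized count over the libraries of a stage, a log2 fold change with its standard error (SE) and an adjusted p. A gene is called changed where that adjusted p, taken over all genes of the stage, is under 0.05. For Chd8 itself the authors' deposited table gives 0.64 (SE 0.031) at the earlier and 0.51 (SE 0.038) at the later stage, and since it does not name the numerator, the direction of all values is read from this gene. Over all genes the call was made for 162 of 13417 at E14.5 and for 9 of 13601 at E18.5. The files hold no values of single libraries, so depth per library and overlap between single animals are unknown. Where levels of KI and WT are given below, they were computed from the deposited mean and fold change with equal group sizes and are called implied means. In whole tissue, fewer cells of a type and less RNA per cell cannot be told apart. The forebrain identity markers Emx1, Emx2, Pax6, Otx1, Six3 and Lhx2 were high enough to be tested at both stages, while of 11 markers of tissue behind the forebrain 1, Gbx2, which the thalamus also expresses, was tested.

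Draxin and Robo2, called lower in KI at E14.5, are shown first by the 300 bases at each transcript start of the RefSeq promoter table (GRCm38.p6), 250 before the start and 50 after it. No window was matched for Ntn1. The table's starts need not be the outer end of the annotated gene, which is base 148131139 for Draxin, outside its window, and base 75447443 for Robo2, inside the first of its windows. All 4 windows lie on the minus strand and read 5′ to 3′ along the gene. Capitals mark CANNTG, the E-box that neuronal bHLH factors can bind, which reads the same on both strands. Draxin has 1 annotated window, at chr4:148130649-148130948. Robo2 has 3, at chr16:75447244-75447543, chr16:75092721-75093020 and chr16:74411776-74412075, printed in that order.
Draxin: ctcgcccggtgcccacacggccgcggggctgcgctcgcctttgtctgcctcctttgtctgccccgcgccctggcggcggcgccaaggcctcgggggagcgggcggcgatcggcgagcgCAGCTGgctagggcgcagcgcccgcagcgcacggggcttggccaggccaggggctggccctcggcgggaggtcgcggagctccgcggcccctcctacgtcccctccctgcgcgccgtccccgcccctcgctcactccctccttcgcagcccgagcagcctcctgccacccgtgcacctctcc
Robo2 first start: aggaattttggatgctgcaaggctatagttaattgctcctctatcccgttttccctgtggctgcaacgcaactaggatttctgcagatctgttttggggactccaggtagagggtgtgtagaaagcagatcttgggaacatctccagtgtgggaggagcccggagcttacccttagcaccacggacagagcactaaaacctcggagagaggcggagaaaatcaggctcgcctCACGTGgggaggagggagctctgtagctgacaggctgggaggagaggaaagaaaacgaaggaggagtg
Robo2 second start: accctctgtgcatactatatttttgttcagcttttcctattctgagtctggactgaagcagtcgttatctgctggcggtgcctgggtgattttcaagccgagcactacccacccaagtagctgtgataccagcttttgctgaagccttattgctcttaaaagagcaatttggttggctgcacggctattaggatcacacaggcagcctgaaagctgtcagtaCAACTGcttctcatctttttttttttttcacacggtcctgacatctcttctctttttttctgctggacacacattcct
Robo2 last start: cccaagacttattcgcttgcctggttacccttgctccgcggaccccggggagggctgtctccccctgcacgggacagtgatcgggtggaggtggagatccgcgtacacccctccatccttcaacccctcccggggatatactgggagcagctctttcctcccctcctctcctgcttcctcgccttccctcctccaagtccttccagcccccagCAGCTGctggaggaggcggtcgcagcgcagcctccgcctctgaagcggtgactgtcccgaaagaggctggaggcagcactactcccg

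The Draxin window was 78.0% G or C and held 39 CG pairs, more than 95.6% of all 32851 windows of the same length. The Robo2 windows held 9, 5 and 17 CG pairs in the order printed. Each of these 4 windows held 1 CANNTG, with CAGCTG for Draxin, starting at base 119 of the window. A CANNTG is common: 72.3% of all windows had one, against 50.6% of the 79 windows used for 63 of the 74 guidance genes. Any windows on chromosome 18, which holds Dcc and Sema6a, were left out of the guidance windows but kept among all windows. GGGCGG or its reverse complement CCGCCC stood in 70.9% of the guidance windows and in 35.7% of all windows, and the median number of CG pairs was 20 against 7. TATAAA or TTTATA stood in 2.53% of the guidance windows and in 13.6% of all windows. The median share of G or C was 64.3% in the guidance windows and 52.7% in all windows. These letters are a description of the sequence, and binding was not analysed here.

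At E14.5, 3 guidance genes of the 70 tested passed the adjusted p: Draxin and Robo2 fell and Ntn1 rose in KI. Among all genes tested 1.21% were called. The other 67 tested genes did not pass. An unadjusted p under 0.05 was seen for 11 of the 70 (7 higher and 4 lower in KI), against 11.5% of all genes. The median log2 fold change of the 70 was 0.013, with 38 above 0 and 32 below, against −0.00051 over all genes tested. Changes were small, with a median absolute log2 fold change of 0.054 against 0.060 for all genes.

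At E18.5 none of 70 guidance genes passed the authors' DESeq2 adjusted p, a stage at which 0.0662% of all genes were called. An unadjusted p under 0.05 was seen for 10 of the 70 (7 higher and 3 lower), against 5.96% of all genes. The median log2 fold change was 0.015, with 40 above 0 and 30 below. Draxin and Ntn1 were the 2 genes under an unadjusted p of 0.05 at both stages, each on the same side of 0 both times. The share of all genes that did so was not computed, so whether this overlap is more than usual is not known. Precision depended on the gene: with the smallest statistic that was called, Plxna2 needed an absolute log2 change of 0.15 to be called at E14.5 and 0.17 at E18.5, and the sparsely counted Sema3b needed 0.94 and 1.42.

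Among the netrins and Draxin the 2 calls lay on opposite sides of 0. Draxin, gene ID 70433 at chr4:148098437-148131139, had an implied mean of 5232 normalized counts in WT and 4302 in KI at E14.5. Its log2 fold change in the authors' deposited table was −0.28 (SE 0.049, adjusted p = 9.97e-06), so that it fell by 17.8%, with a 95% interval of −23.1 to −12.1%. By p-value it ranked 11 among all genes of the stage. At E18.5 the implied means were 4280 in WT and 3857 in KI. The authors' deposited table then gave −0.15 (SE 0.042, adjusted p = 0.170), which did not pass, at rank 27. Draxin thus had the lowest p-value of the guidance genes at both stages and was on the lower side in KI both times.

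Ntn1 encodes Netrin-1, an attractant or repellent depending on the receptor it meets. It is gene ID 18208 at chr11:68209364-68386826. Its implied means at E14.5 were 1208 normalized counts in WT and 1441 in KI, a rise of 19.2% (95% interval 9.66 to 29.6%). That is a log2 fold change of 0.25 in the authors' deposited table (SE 0.062, adjusted p = 0.00754). At E18.5 the implied means were 1109 and 1229, and the deposited table of the authors gave 0.15 (SE 0.070, adjusted p = 0.805), which did not pass. The call did not hold with a Benjamini-Yekutieli adjustment (adjusted p = 0.0760) or with a null distribution estimated from all genes (0.137). The ligand was on the higher side in KI at both stages, opposite to Draxin.

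The remaining netrins did not pass at either stage. Ntn3 was at 0.02 at E14.5 and −0.04 at the later stage by the authors' deposited table, and Ntn4, a netrin of basement membranes, at 0.09 and 0.02. The membrane-anchored netrin-G genes, which act at synapses through their own ligands, were at 0.12 and −0.04 for Ntng1 and at 0.01 and −0.07 for Ntng2, also from the authors' deposited table. Ntn5 was named by its symbol and is in neither list of genes. The 6 measured genes had 5 values above 0 at E14.5 and 2 at E18.5.

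**Figure D1:**
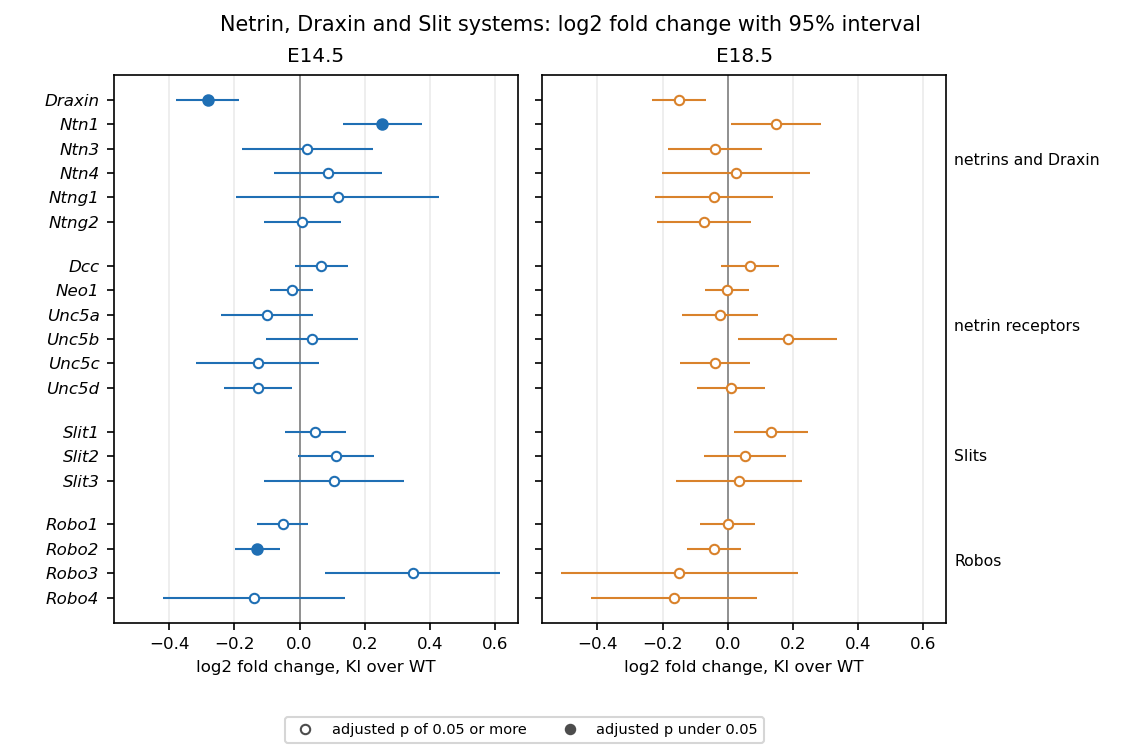
Log2 fold change of KI over WT (horizontal axis) for the netrins, Draxin, the netrin receptors, Slits and Robos at E14.5 (left) and E18.5 (right), from the authors' deposited tables. Points are the deposited values, bars the 95% interval from the deposited SE, and filled points the called genes: Draxin at −0.28, Ntn1 at 0.25 and Robo2 at −0.13, all at E14.5.

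None of the 6 netrin receptors passed at either stage. Dcc, the receptor for netrin attraction that Draxin also binds, had implied means of 6320 in WT and 6620 in KI at E14.5 and of 3143 and 3295 at E18.5. Its log2 fold changes in the authors' deposited table were 0.07 (SE 0.041) and 0.07 (SE 0.045). Neo1, a Dcc relative that also binds repulsive guidance molecules, was at −0.02 and −0.0026 there, with 95% intervals of −0.09 to 0.04 and −0.07 to 0.06. The intervals of these 2 receptors include 0 at both stages.

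The Unc5 receptors, which turn the netrin response into repulsion, were on the lower side in 3 of 4 cases at E14.5. Unc5d, a gene of upper-layer neurons, had implied means of 1532 in WT and 1403 in KI and a log2 fold change of −0.13 (adjusted p = 0.269, SE 0.053) in the authors' deposited table. Unc5c at −0.13 (SE 0.096) and Unc5a at −0.10 (SE 0.072) had wider errors, and Unc5b was at 0.04 in that same authors' deposited table. At E18.5 Unc5b, which vessels also use, stood highest, with implied means of 414 and 470 and a value of 0.18 (adjusted p = 0.743, SE 0.078, in the authors' deposited table). Unc5a, Unc5c and Unc5d lay between −0.04 and 0.01 then. All 6 netrin receptors had a higher log2 fold change at E18.5 than at E14.5, by 0.0011 for Dcc to 0.14 for Unc5b, and none of these differences passed the test of the difference described below.

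The 3 Slits, secreted repellents of forebrain commissural and corticofugal axons, were above 0 at both stages without a call. Slit1 had implied means of 2262 in WT and 2339 in KI at E14.5 and of 2028 and 2222 at E18.5. The authors' deposited table gave 0.05 (SE 0.048) at the first stage and 0.13 (SE 0.058, adjusted p = 0.770) at the second. Slit2 was at 0.11 (SE 0.059) and 0.05 (SE 0.064), and Slit3, the least counted Slit, at 0.10 (SE 0.110) and 0.04 (SE 0.098), from the authors' deposited table. Each of these intervals but that of Slit1 at E18.5 includes 0.

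Their receptors lay mostly on the other side of 0. Robo2, gene ID 268902 at chr16:73891976-75447443, fell in KI at E14.5, from an implied mean of 5075 to 4636 normalized counts. The log2 fold change in the authors' deposited table was −0.13 (SE 0.035, adjusted p = 0.0244), and the gene fell by 8.64% with a 95% interval of −12.9 to −4.16%. At E18.5 Robo2 stood at implied means of 7028 in WT and 6827 in KI, −0.04 in the authors' deposited table (SE 0.042). Robo1, which acts beside Robo2 in cortical axons, was at −0.05 (SE 0.040) and −0.00099 (SE 0.042) by the authors' deposited table. Of the pair, Robo2 alone was called, and that call too was lost with a Benjamini-Yekutieli adjustment (adjusted p = 0.246) and with an estimated null (0.267).

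Robo3, a divergent Robo of crossing axons, and Robo4, an endothelial Robo, had few counts. Robo3 had implied means of 167 and 212 at E14.5 and of 66.9 and 60.4 at E18.5. Its log2 fold change in the authors' deposited table was 0.35 (SE 0.136, adjusted p = 0.223) at the first stage, the highest of the tested guidance genes then, and −0.15 (SE 0.186) at the second. Robo4 was at −0.14 (SE 0.142) and −0.17 (SE 0.130), the lowest of the tested receptors both times by the authors' deposited table. Neither passed, and 3 of 4 Robos at E14.5 and 4 of 4 at E18.5 lay below 0.

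The 20 semaphorins were the largest ligand family, and none passed at either stage. At E14.5, 10 lay above 0 and 10 below, with a median of 0.00050, and at E18.5 13 lay above and 7 below, with a median of 0.02. The secreted class 3 semaphorins ranged at E14.5 from −0.10 for Sema3a to 0.29 for Sema3d in the authors' deposited table. Sema3a, the prototype repellent of cortical axons and an attractant of their apical dendrites, had implied means of 926 in WT and 864 in KI at E14.5 and of 1056 and 1121 at E18.5. The corresponding values in the authors' deposited table were −0.10 (SE 0.060) and 0.09 (SE 0.059), on opposite sides of 0. Sema3d rested on a mean of 32.3 counts, and its 95% interval ran from −0.21 to 0.79.

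Sema3e, a ligand of Plxnd1 that is made by deep-layer and thalamic neurons, was the lowest semaphorin at E18.5. Its implied means were 267 in WT and 224 in KI, a log2 fold change of −0.26 (adjusted p = 0.550, SE 0.092) in the authors' deposited table. At E14.5 it had been at −0.04 (SE 0.156) there, on a mean of 99.5 counts. Sema3c, an attractant of callosal axons, was at −0.04 and −0.05 and Sema3f at −0.01 and 0.02 at the 2 stages in the authors' deposited table. The sparse Sema3b and Sema3g had the widest intervals of the family at E18.5, with Sema3g the highest at E18.5 at 0.19 (SE 0.243 in the authors' deposited table).

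The class 5 semaphorins are transmembrane proteins with thrombospondin repeats. Both had an unadjusted p under 0.05 at E14.5 and neither did at E18.5. Sema5b had implied means of 1763 in WT and 1929 in KI at E14.5 and of 1072 and 1072 at E18.5, and the authors' deposited table gave 0.13 (SE 0.048, adjusted p = 0.190) and 0.0013 (SE 0.078). Sema5a had implied means of 2779 and 2952 at E14.5, 0.09 (adjusted p = 0.427, SE 0.044) in the authors' deposited table. Class 4 genes ranged from −0.08 for Sema4a to 0.03 for Sema4b at E14.5 and from −0.05 for Sema4g to 0.07 for Sema4d at E18.5, by the authors' deposited table. The class 6 genes, transmembrane ligands that bind A plexins directly, ranged from −0.02 for Sema6b to 0.05 for Sema6c at E14.5 by the authors' deposited table. Their E18.5 values ran from −0.01 for Sema6c to 0.04 for Sema6d in the authors' deposited table. Sema7a, a membrane-anchored semaphorin that acts through integrins and Plxnc1, was at −0.02 and −0.05 by the authors' deposited table.

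Neuropilins are the ligand-binding partners of plexins for secreted semaphorins. Nrp1, the Sema3a receptor, was first at −0.06 (SE 0.062) and then at −0.0028 (SE 0.049) by the authors' deposited table. Nrp2, the Sema3f receptor, had implied means of 3702 in WT and 3810 in KI at E14.5 and of 4425 and 4949 at E18.5. Its deposited log2 fold change in the authors' table was 0.04 (SE 0.044) and then 0.16 (SE 0.057, adjusted p = 0.503), which did not pass.

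The A plexins, signalling receptors for class 3 and class 6 semaphorins, lay close to 0 at E14.5. Their 4 values ran from −0.0012 for Plxna1 to 0.03 for Plxna4 in the authors' deposited table, and at E18.5 from −0.08 for Plxna3 to 0.02 for Plxna2. Plxna2 was the most highly counted guidance gene at both stages, and its 95% intervals of −0.07 to 0.10 and −0.06 to 0.10 include 0. Plxna3, on the X chromosome, had implied means of 4569 in WT and 4572 in KI at E14.5 and of 6594 and 6253 at E18.5. The SE of Plxna3 in the authors' deposited table was 0.087 and 0.151, which is 2.16 and 3.72 times the median of the 501 genes of most similar count. Its libraries thus spread more than those of genes of like count, and which libraries did so cannot be read from these files. Sema4g showed the same at E18.5, with an SE of 0.117 in the authors' deposited table, 2.77 times that median.

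Of the B, C and D plexins none was called. Plxnb1, a receptor for class 4 semaphorins, had implied means of 4877 in WT and 5219 in KI at E14.5, 0.10 (adjusted p = 0.342, SE 0.045) in the authors' deposited table, and was at 0.02 (SE 0.055) at E18.5. Plxnb2 was at −0.01 (SE 0.034) and −0.05 (SE 0.033) by the authors' deposited table. Plxnd1, the Sema3e receptor, was the lowest plexin at E14.5, with −0.09 (SE 0.050) in the authors' deposited table, and was at −0.08 (SE 0.057) at E18.5. Plxnc1 was at 0.08 (SE 0.046) and 0.07 (SE 0.050), again in the authors' deposited table. Plxnb3 had a mean of 3.5 counts and no adjusted p at E14.5, and its E18.5 value of 0.43 (SE 0.276) in the authors' deposited table rested on 38.4 counts. The antisense gene Plxna4os1, which the symbol pattern includes, had 1.65 counts at E14.5 and is not listed at E18.5. It is neither ligand nor receptor, and whether counting used the strand is not given in the sources used here.

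**Figure D2:**
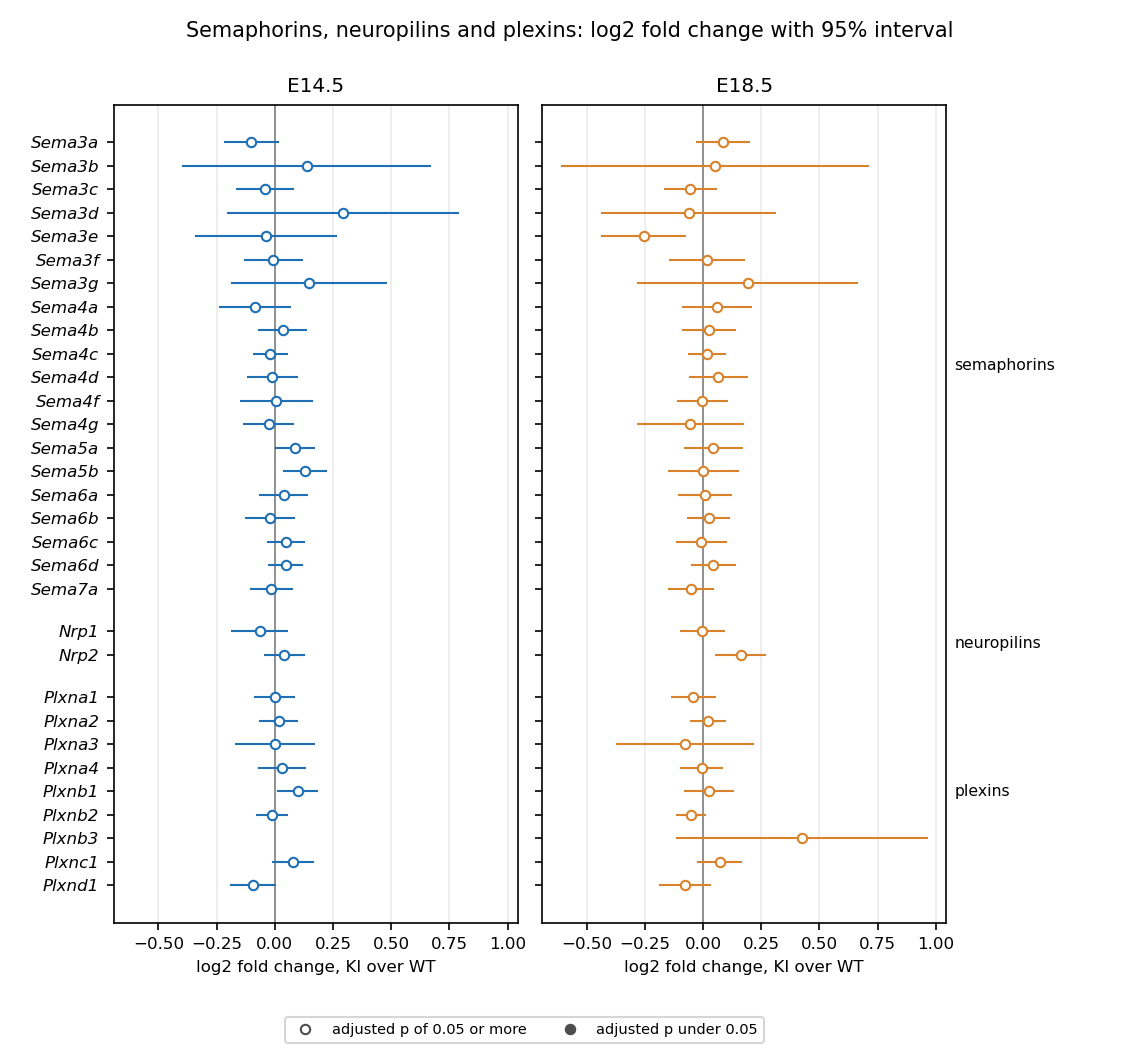
Log2 fold change of KI over WT (horizontal axis) for the 20 semaphorins, the neuropilins and the tested plexins at E14.5 (left) and E18.5 (right), from the authors' deposited tables. Points are deposited values and bars 95% intervals from the deposited SE. No point is filled, since none was called, and the A plexins lie close to 0 at E14.5.

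Ephrins did not pass at either stage. The transmembrane ephrin Efnb3, a midline repellent of corticospinal axons, came nearest at E14.5, with implied means of 3244 in WT and 3556 in KI. The authors' deposited table gave it 0.13 (SE 0.041, adjusted p = 0.0775), and 0.04 (SE 0.044) at E18.5. Efnb1 was at 0.04 and 0.03 and Efnb2, which also marks arterial endothelium, at −0.04 and 0.05 in the authors' deposited table. The B ephrins were thus above 0 in 2 of 3 cases at E14.5 and in 3 of 3 at E18.5.

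The 5 A ephrins, which are anchored to the membrane by lipid, showed the widest range of the ligands at E18.5. Efna4 had implied means of 366 in WT and 343 in KI at E14.5 and of 257 and 203 at E18.5, with −0.34 (adjusted p = 0.299, SE 0.107) in the authors' deposited table at the second stage. Efna3 had implied means of 270 and 266 at E14.5 and of 482 and 569 at E18.5, with 0.24 (adjusted p = 0.503, SE 0.084) there in the authors' deposited table. These genes lay at opposite ends of the ligands at E18.5, and neither was called. Efna5, which patterns thalamocortical and retinal maps, was at 0.08 at both stages (SE 0.097 and 0.091 in the authors' deposited table). Efna2 was at −0.01 and −0.04, and the sparse Efna1 at 0.15 (SE 0.153) and 0.08 (SE 0.193), by the authors' deposited table.

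The Eph receptors are receptor tyrosine kinases, and none of the 13 tested at E14.5 or of the 12 tested at E18.5 passed. Ephb3, which works with Ephb2 in callosal axons, had implied means of 367 in WT and 428 in KI at E14.5, 0.22 (adjusted p = 0.217, SE 0.086) in the authors' deposited table, and was at 0.04 (SE 0.088) at E18.5. Ephb2 was at −0.02 (SE 0.051) and −0.03 (SE 0.041) by the authors' deposited table. Ephb6, a receptor whose kinase domain lacks activity, had implied means of 983 and 902 at E14.5 and was the lowest tested Eph receptor at both stages. It had −0.12 (SE 0.052, adjusted p = 0.277) and −0.06 (SE 0.068) in the authors' deposited table.

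Among the EphA receptors the well-counted genes lay near 0 at E14.5. Epha4, which binds ephrins of both classes, was at 0.03 (SE 0.033) and 0.0019 (SE 0.059) in the authors' deposited table. Epha3 had implied means of 2852 in WT and 2791 in KI at E14.5 and of 1340 and 1471 at E18.5. The authors' deposited table gave Epha3 −0.03 (SE 0.038) and then 0.13 (SE 0.055, adjusted p = 0.709). Epha5 followed the same order, with implied means of 5672 and 5545 and then 4321 and 4551, and with −0.03 (SE 0.035) and 0.07 (adjusted p = 0.773, SE 0.033) in the authors' deposited table. At E18.5, 6 of 7 EphA receptors tested were above 0. Epha10 had the highest Eph value at E14.5, 0.33 (SE 0.315), on 27.8 counts in the authors' deposited table. Epha1, at −0.52 (SE 0.429) in the authors' deposited table, had 12.7 counts and no adjusted p at E14.5 and is not listed at E18.5, and Epha2, at 32.0 counts, has no adjusted p at E18.5.

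**Figure D3:**
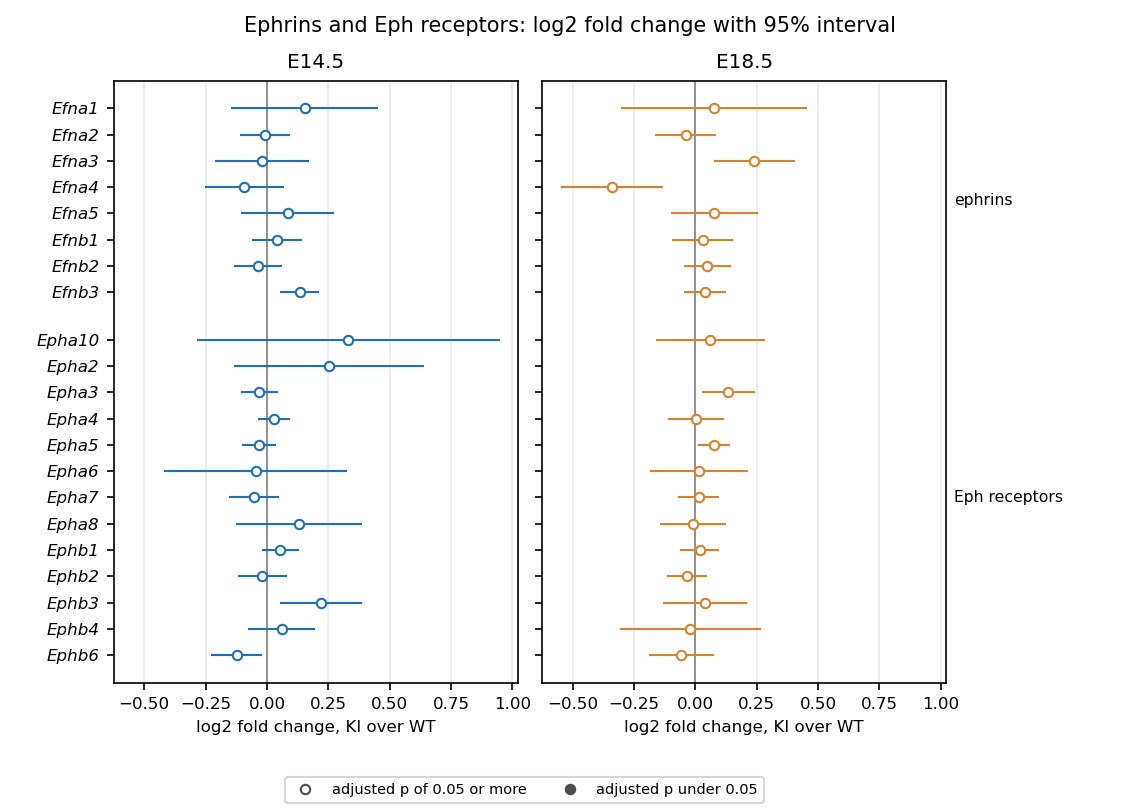
Log2 fold change of KI over WT (horizontal axis) for the ephrins and the tested Eph receptors at E14.5 (left) and E18.5 (right), from the authors' deposited tables. Points are deposited values, bars are 95% intervals from the deposited SE, and no point is filled because none was called. Efna4 at −0.34 and Efna3 at 0.24 stand apart at E18.5.

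Whether the KI difference itself changed between stages was tested by setting the 2 deposited log2 fold changes of each gene against each other, E18.5 minus E14.5, with a normal test on their joint SE. The stages share no library. None of 69 guidance genes passed after Benjamini-Hochberg adjustment over 13106 genes, and 0.0% of all genes did. Without adjustment 6 guidance genes had a p under 0.05, against 4.52% of all genes. They were Epha3 with a difference of 0.17 (SE 0.067), Epha5 with 0.11 (SE 0.048), Sema3a with 0.19 (SE 0.084), Robo3 with −0.50 (SE 0.231), Draxin with 0.13 (SE 0.064) and Efna3 with 0.26 (SE 0.129). The adjusted p was 0.999 for each of them. For Ntn1 the difference was −0.11 (SE 0.093) and for Robo2 0.09 (SE 0.055). So the calls of Draxin, Ntn1 and Robo2 at E14.5 and their absence at E18.5 do not amount to a shown difference between stages.

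The guidance genes had the same sign at both stages in 45 of 69 cases, 65.2%, against 57.8% of all genes. Across these 69 genes the Pearson correlation of the stages' log2 fold changes was 0.29, against 0.21 across all genes. It is a description only, since genes are not independent replicates and share their libraries. The sign was the same for 23 of 37 ligands and 22 of 32 receptors, while the correlation was 0.38 across the ligands and 0.16 across the receptors.

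**Figure D4:**
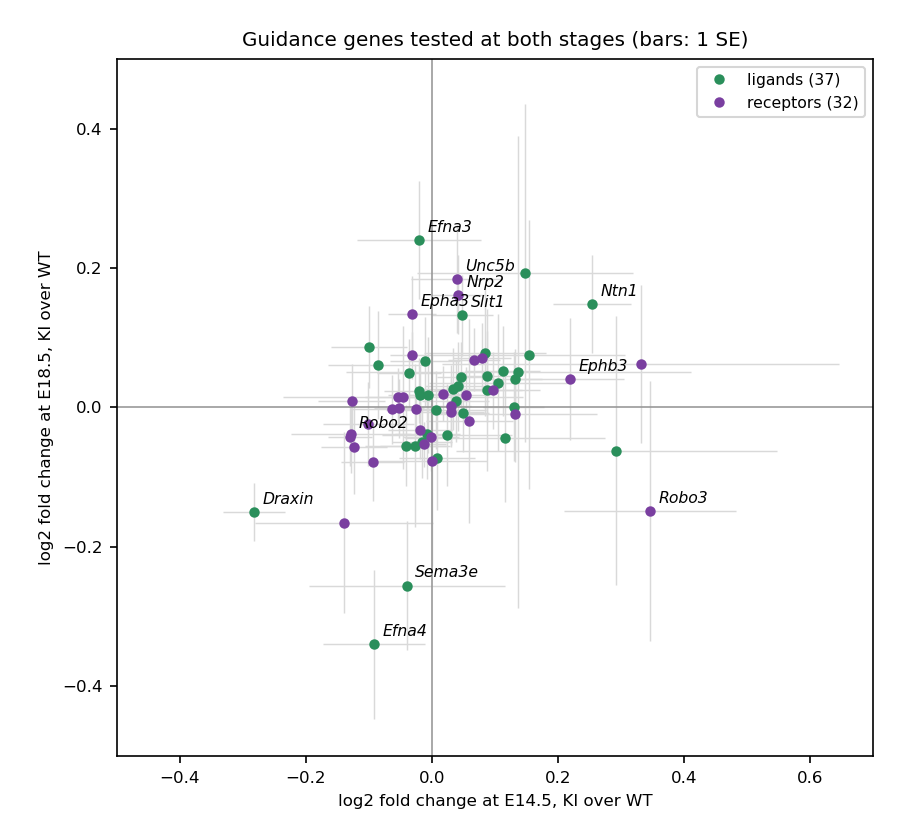
Log2 fold change of KI over WT at E14.5 (horizontal axis) and at E18.5 (vertical axis) for the 69 guidance genes tested at both stages, from the authors' deposited tables, with 37 ligands in green and 32 receptors in purple. Bars are 1 SE. Draxin lies low and Ntn1 high at both stages, and Robo3 lies high at E14.5 and below 0 at E18.5.

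Levels at the 2 stages were set side by side, both genotypes together. The ratio of mean normalized counts at E18.5 over E14.5 was taken for each gene, less the median over all genes (0.09 on the log2 scale), as a description without a test because the authors normalized the stages separately. Of the 69 guidance genes 42 were higher at E18.5 and 27 lower, with a median of 0.26. More than 2-fold differences were seen for 23.2% of them, against 14.6% of all genes. The 9 that were higher by that much included the receptors Epha10 (8.05-fold), Epha6 (4.13-fold), Epha8 (3.87-fold) and Unc5c (3.40-fold) and the ligands Ntng1 (2.67-fold), Sema3d (2.64-fold) and Sema3e (2.31-fold). The 7 that were lower included Robo3 (3.17-fold), the ephrin Efnb1 (2.77-fold), Sema5a (2.55-fold), Ephb4 (2.25-fold), and Dcc and Epha3 (2.14-fold each). Of the called genes, Draxin was 1.25-fold and Ntn1 1.21-fold lower at E18.5, and Robo2 1.34-fold higher. Dcc and Robo3 were thus lower at the later stage while Unc5c, Robo1 and Robo2 were higher.

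**Figure D5:**
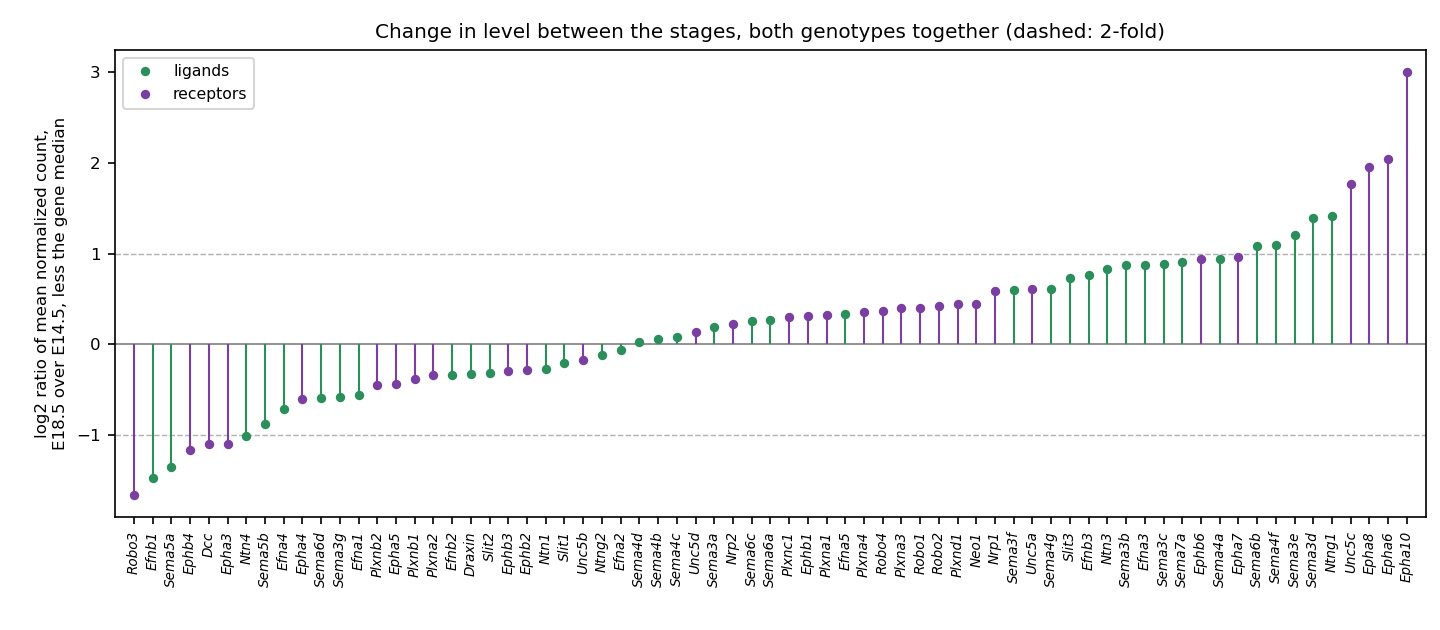
Log2 ratio of the authors' mean normalized count at E18.5 over that at E14.5, less the median over all genes (vertical axis), for the 69 guidance genes tested at both stages (horizontal axis, in order), ligands in green and receptors in purple. Both genotypes enter each mean, and dashed lines mark a 2-fold difference. Robo3 is lowest at −1.67 and Epha10 highest at 3.01.

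Within 1000000 bases of Draxin, Ntn1 and Robo2, 26, 21 and 4 other genes were tested at E14.5, and 0 of them were called. Among all genes 1.21% were called at that stage, so the absence of a call among so few neighbours says little about these regions.

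The intracellular effectors of guidance receptors, their coreceptors, and other guidance cues were read as lists in the same way. Of 57 effectors, 36 coreceptors and 29 other cues tested at E14.5, 0 were called by the authors' adjusted p, against 1.21% of all genes. Unadjusted p-values under 0.05 were found for 6, 5 and 4 of them, or 10.5%, 13.9% and 13.8%, near the 11.5% of all genes. Among these, the cell adhesion gene Cntn2, a partner of L1-type molecules on axons, was at −0.13 (SE 0.042, adjusted p = 0.0799) and the kinase Pak1 at −0.11 (adjusted p = 0.0970, SE 0.037) in the authors' deposited table. The netrin-G1 ligand gene Lrrc4c was at −0.19 (SE 0.077), while Gpc1, a glypican that binds Slits, was at 0.12 (SE 0.043) in the authors' deposited table. At E18.5, with 57, 35 and 30 tested, 0 were called, against 0.0662% of all genes. An unadjusted p under 0.05 was seen there for 2 of each list, against 5.96% of all genes. The Netrin-1 receptor gene Dscam was at 0.15 (SE 0.054, adjusted p = 0.593) and the GDNF receptor gene Gfra1 at 0.20 (SE 0.066, adjusted p = 0.409) then in the authors' deposited table. Shh, a midline morphogen that also guides axons, was at 0.35 (SE 0.172) at E14.5 and later 0.55 (SE 0.244), by the authors' deposited table, without passing.

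Of the marker genes of cell types, 6 were called at E14.5 and 0 at E18.5, stages at which 1.21% and 0.0662% of all genes were called. Some genes stand in more than 1 list and a share called over all markers was not formed, so the count cannot be set against these shares. All 10 deep-layer projection neuron markers were below 0 at E14.5, from −0.25 for Crym to −0.03 for Bcl11b, with a median of −0.11, and 1 of them, Ldb2, fell (−0.25, adjusted p = 0.0438 by the authors' deposited table). At E18.5, 5 of these 10 were below 0. Other lists leaned the same way at E14.5, with 8 of 11 pan-neuronal and 7 of 9 striatal markers below 0. Their medians were −0.03 and −0.05, and 0 were called. At E18.5, 11 of the 11 and 7 of the 9 were above 0. Of the progenitor lists, 6 of 10 radial glia markers were below 0 at E14.5 and 5 of 6 intermediate progenitor markers above 0. Of 12 markers of the GABAergic lineage, 10 were above 0 at each stage, with medians of 0.11 and 0.10, and Dlx1 rose at E14.5 (0.17, adjusted p = 0.0369 by the authors' deposited table). At E14.5 an unadjusted p under 0.05 was seen for 5 of the 12 on the higher side and 2 on the lower. The lowest was Npy at −0.23 in the authors' deposited table. Of 8 upper-layer markers, which include Unc5d, 5 were below 0 at E14.5, with a median of −0.06. Cux1 alone of them was called and rose (0.18, adjusted p = 0.00628 by the authors' deposited table). An unadjusted p under 0.05 was seen for 1 of the 8 on the higher side and 3 on the lower. The lowest was Inhba at −0.43 in the authors' deposited table, without a call. At E18.5, 6 of the 8 were below 0. The 4 erythroid genes tested at E14.5 were above 0, with a median of 0.50, and the embryonic globin genes Hbb-y (0.50) and Hba-x (0.59) rose by the authors' deposited table. The 9 endothelial markers, of the cells that express Robo4 and Unc5b, had medians of −0.01 and 0.02 at the earlier and later stage, with 0 called. Ndnf, a Cajal-Retzius marker, fell at E14.5 (−0.49 by the authors' deposited table) and was the remaining marker called, while 3 of the 6 markers of that list lay above 0 and their median was 0.02. Gbx2 was at 0.38 at E14.5 and 0.70 at E18.5 by the authors' deposited table, without a call. It was the highest of the diencephalon markers at both stages. Of 6 tested at E14.5, 4 were above 0 with a median of 0.03, and of 5 tested at E18.5, 4 were above 0 with a median of 0.21. Summed marker levels per library could not be formed. Whether cell makeup takes part in the differences of Draxin, Ntn1 and Robo2 was not tested.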

How the data were processed

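Polyadenylated RNA of male mouse forebrain was sequenced, 5 WT and 5 KI libraries at each of E14.5 and E18.5. The authors used DESeq2 1.26.0 for the comparison, featureCounts 2.0.0, HISAT2 2.1.0 and Trimmomatic 0.39, and build mm10, per the submitters' processing notes. The deposited values, per the file headers, are the authors' result for each gene and stage: a mean normalized count (a signal averaged over libraries), a log2 fold change with its SE, the Wald statistic as a score, and p-values before and after adjustment. These deposited tables have 0 columns of values per library, so the planned count model gave way to the authors' deposited test, depth per library is unknown, and the SE gives the precision. Recomputing the score (log2 fold change over SE) and the Benjamini-Hochberg adjustment gave the deposited values within 6.86e-05. The adjustment covers 13417 genes at the earlier and 13601 at the later stage.

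Gene IDs were matched to RefSeq symbols of GRCm38.p6 for 17192 of 17940 genes at E14.5 and 15064 of 15449 at E18.5. Membership follows from symbols, but the symbol rule and the lists were themselves chosen with earlier results of these data known. Values were named for called genes, genes with an unadjusted p under 0.05, the extremes and the most counted gene of each family, the main forebrain guidance genes, the largest stage differences, and up to 4 genes of each pathway list. Intervals are 95% normal intervals, and implied means are 2 times the mean normalized count divided by 1 plus the fold, times the fold for KI. The stage difference was computed with scipy 1.17.1 and pandas 2.3.3 and tested on simulated data. The fits that leave out a library or block on the replicate number need values per library and were not run. Promoter windows came from RefSeq and were used for 63 of 74 genes, with chromosome 18 left out of the guidance windows. The result of 1 marker gene is not reported here.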

Additional observations from a re-analysis of the deposited data

How the results depend on the processing

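Of the 3 calls at E14.5, that of Draxin held under all 6 alternatives (adjusted p from 8.51e-06 to 0.00265), and Ntn1 and Robo2 lost theirs under 2. With the Benjamini-Yekutieli adjustment 1 guidance gene was called, with adjusted p = 0.0760 for Ntn1 and 0.246 for Robo2. With a null distribution estimated from all genes, whose scale was 1.22, 1 was called, with 0.137 and 0.267. Both settings call fewer genes of the whole table, 56 and 31 in place of 162. At E18.5 the 9 calls over all genes became 4 with Benjamini-Yekutieli, 14 with a mean count of at least 100 and 19 with the estimated null, and 0 guidance genes were called under each. The stage difference gave 0 guidance genes under its 4 alternatives, and the median log2 fold changes of the guidance genes stayed between 0.0037 and 0.017 at both stages. No paired analysis was possible because the tables hold no values per library, and for the same reason no library could be left out. Genes with few counts, such as Sema3b, Sema3d and Epha10, could be called only for large differences.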
